A study of Homo sapiens with 10 samples.

Results

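A set of 8 regions of the human genome, named for the genes DUSP6, NORAD, TRIM41, RPL12, P4HB, RBM22, UBLCP1 and SKI, carried an ERG peak in all 4 ERG ChIP-seq lists of 2 prostate cell lines. They are 8 of the 7712 ERG peaks of VCaP cells, and were chosen by the presence of a peak in the VCaP ERG list and in each of the 3 ERG lists of RWPE1 cells. Only 15 VCaP ERG peaks (0.195%) overlapped a peak in all 3 RWPE1 ERG lists, and 23 (0.298%) had one within 5 kb in each, so the 8 are a selection from 15. Presence in the ERG lists is therefore how the regions were found and is given below as a description, with no test.

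VCaP is a prostate cancer line that expresses ERG from its own rearranged gene, while the RWPE1 line derives from normal prostate. The RWPE1 cells were made to express stably either wild-type ERG or ERG P436A, a point mutant. Antibodies to ERG gave 1 VCaP list, 2 replicate lists with wild-type ERG and 1 list with ERG P436A, and antibodies to EWS gave 1 list for VCaP and 1 for each of the 2 RWPE1 lines. No treatment was given to any group, but VCaP was grown in DMEM with serum, and RWPE1 in keratinocyte medium with pituitary extract, epidermal growth factor and the selection agents puromycin and hygromycin, so cell line and medium cannot be told apart. The labels say neither whether each RWPE1 line is a single clone nor whether the replicates came from separate cultures. Each list gives peaks as hg19 positions only, with no height or p-value, read depth is unknown, and a group other than wild-type ERG has no replicate check. The 7 lists held 1746 to 9500 peaks.

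ERG belongs to the ETS family of transcription factors, which bind DNA at a short core, GGAA, in a preferred setting of flanking bases, and many promoters of housekeeping genes hold ETS sites. A gene fusion that puts ERG under an androgen-driven promoter is common in prostate cancer. EWS is an RNA-binding protein, known from the Ewing sarcoma fusions, that was studied here as a co-activator of ERG. The 8 names cover unlike roles. DUSP6 is a phosphatase that switches off the MAP kinase ERK and is itself induced by ERK signalling. SKI is a co-repressor of SMAD proteins in TGF-beta signalling. NORAD is a long noncoding RNA that binds PUMILIO proteins, RPL12 a protein of the large ribosomal subunit, and RBM22 a splicing factor. P4HB is protein disulfide isomerase of the endoplasmic reticulum, TRIM41 a RING-type ubiquitin ligase, and UBLCP1 a phosphatase of the proteasome.

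The placement at promoters rests on these gene names, since no hg19 annotation was used here. From known gene models, the SKI region lies inside the gene, within an intron, and not at its usual start site, so SKI is called a region and not a promoter below. Promoter sequences for the other 7 genes came from RefSeq (GRCh38.p14), a later build whose positions cannot be set against the hg19 peaks. SKI had no entry. Sequences of 6 promoters are shown. Those of NORAD, TRIM41, RBM22 and UBLCP1 hold the longer ETS consensus CCGGAAG, and those of DUSP6 and P4HB do not. The RPL12 promoter also lacks it and is not shown. Each sequence shown runs 5′ to 3′ on the gene's strand over the 250 bases before the start site. Capitals mark the ETS core GGAA or, on the other strand, TTCC, and a run of 7 capitals marks the longer ETS consensus CCGGAAG or its reverse complement.
NORAD: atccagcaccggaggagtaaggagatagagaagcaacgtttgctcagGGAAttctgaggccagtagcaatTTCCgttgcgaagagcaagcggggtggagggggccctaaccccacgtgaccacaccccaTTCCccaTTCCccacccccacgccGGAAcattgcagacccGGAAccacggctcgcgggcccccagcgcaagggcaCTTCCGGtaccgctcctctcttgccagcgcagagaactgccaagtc
TRIM41: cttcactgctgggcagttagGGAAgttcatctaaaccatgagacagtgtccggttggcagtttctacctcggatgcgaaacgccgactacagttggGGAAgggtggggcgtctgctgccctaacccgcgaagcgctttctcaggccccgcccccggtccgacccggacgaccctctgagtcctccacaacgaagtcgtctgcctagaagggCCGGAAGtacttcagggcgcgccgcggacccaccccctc
RBM22: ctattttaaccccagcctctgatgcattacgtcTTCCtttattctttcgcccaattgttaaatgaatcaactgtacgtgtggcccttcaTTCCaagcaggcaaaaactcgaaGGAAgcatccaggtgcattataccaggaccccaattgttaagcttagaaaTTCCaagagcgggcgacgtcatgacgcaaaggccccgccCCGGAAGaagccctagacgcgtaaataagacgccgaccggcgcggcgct
UBLCP1: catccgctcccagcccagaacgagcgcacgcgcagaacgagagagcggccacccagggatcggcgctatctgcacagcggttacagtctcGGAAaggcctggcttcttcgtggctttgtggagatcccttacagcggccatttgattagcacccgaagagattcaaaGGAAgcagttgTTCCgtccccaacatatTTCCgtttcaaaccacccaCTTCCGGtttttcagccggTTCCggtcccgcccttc
DUSP6: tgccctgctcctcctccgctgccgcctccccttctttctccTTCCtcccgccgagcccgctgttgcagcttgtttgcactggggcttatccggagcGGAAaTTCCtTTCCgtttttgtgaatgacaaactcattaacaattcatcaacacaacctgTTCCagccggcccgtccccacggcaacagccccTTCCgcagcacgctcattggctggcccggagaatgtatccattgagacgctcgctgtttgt
P4HB: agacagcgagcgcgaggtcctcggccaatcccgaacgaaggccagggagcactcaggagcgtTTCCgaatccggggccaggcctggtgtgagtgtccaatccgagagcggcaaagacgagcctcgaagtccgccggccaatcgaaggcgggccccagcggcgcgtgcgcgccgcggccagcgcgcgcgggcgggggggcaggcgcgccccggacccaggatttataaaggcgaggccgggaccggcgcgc
In GRCh38.p14 these are chr20:36050961-36051210 (minus strand) for NORAD, chr5:181223031-181223280 (plus) for TRIM41, chr5:150701063-150701312 (minus) for RBM22, chr5:159263040-159263289 (plus) for UBLCP1, chr12:89352502-89352751 (minus) for DUSP6 and chr17:81860536-81860785 (minus) for P4HB.

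The longer consensus CCGGAAG was found, on either strand, in 4 of the 7 promoters, taken over 300 bases from 250 before to 50 after the start: those of NORAD, TRIM41, RBM22 and UBLCP1. Of all 35116 RefSeq promoter entries of that length, 10.3% held it, and of the 22199 entries of protein coding genes 12.8% did. In each of the 4 a match lay in the 50 bases before the start site: at −46 to −40 in NORAD, −39 to −33 in TRIM41, −49 to −43 in RBM22 and −36 to −30 in UBLCP1. A match in those 50 bases was present in 3.64% of all entries, or 35.5% of the entries with any match, a comparison chosen after the positions were seen. TRIM41 and UBLCP1 each had another match just past the start, at 2 to 8. The shorter core GGAA, which is part of the longer one, was in all 7 promoters, in 95.5% of all entries and in 95.1% of those of protein coding genes, so its presence sets none of them apart. Its matches numbered 8 in NORAD, 7 in UBLCP1, 6 each in DUSP6, RPL12 and RBM22, 4 in TRIM41 and 1 in P4HB. The P4HB promoter was also the richest in G and C (73.7%), against a median of 62.3% for the 7 and 62.3% for protein coding entries, and RBM22 was lowest (52.7%). The median count of C followed by G, a pair that CCGGAAG holds, was 27 for the 7. It was 21 for protein coding entries and 14 for all entries, and its part in the motif counts was not tested.

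Further motifs were searched on both strands. A pair of GGAA cores end to end was in none of the 7 promoters and in 3.67% of all entries. The pattern TGANTCA, N being any base, was used as a loose form of the AP-1 site and was in 7.71% of all entries. Because any middle base is admitted, a match need not be an AP-1 site. Of the 7 promoters only that of RBM22 held it, at −188 to −182, where the letters read TGAATCA. The RPL12 promoter shared 203 of its 300 bases with an entry for LRSAM1, a ubiquitin ligase gene on the opposite strand, and 179 with a second entry, so a peak over these bases could belong to either gene. No other member promoter shared bases with an entry of another gene. These matches describe letters in the windows, not bound sites.

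**Figure D1:**
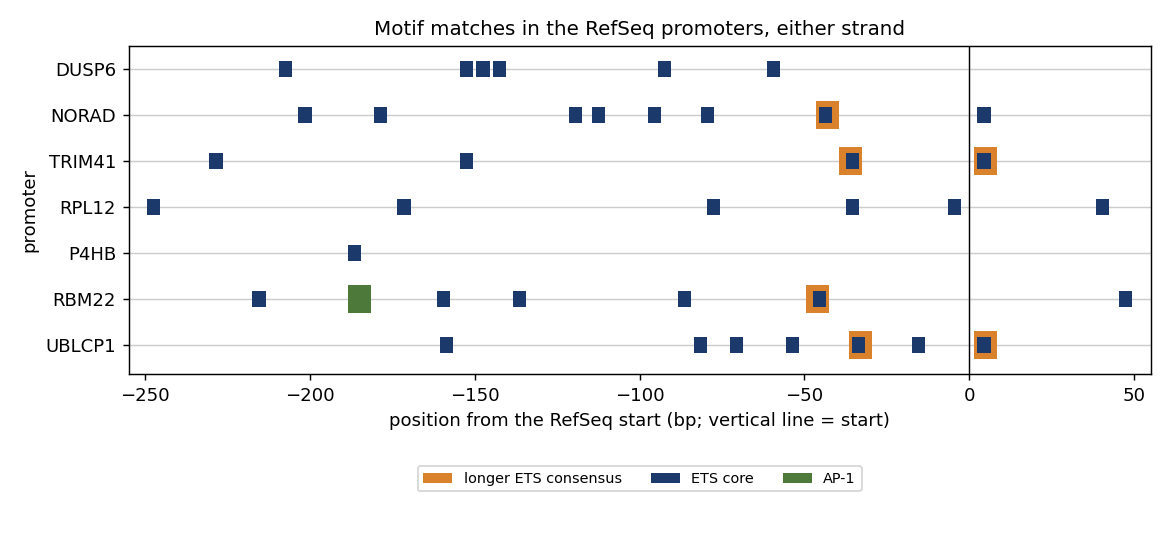
Positions of motif matches (x axis, bp from the RefSeq start site) in the 7 promoters with an entry (y axis), on either strand. The ETS core is in blue, the longer ETS consensus in orange and the loose pattern TGANTCA, labelled AP-1, in green. The 4 promoters with the longer consensus have it within the 50 bases before the start, and P4HB has 1 core.

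Genes of related pathways, from lists drawn up with earlier results known, were read for the same letters, as their peaks could not be assigned without an hg19 annotation. Among ERK feedback genes, the group of DUSP6, 1 of the 8 with a promoter entry held CCGGAAG, namely SPRY1, which codes for a Sprouty inhibitor of receptor signalling. Ribosomal protein genes held it in 24 of 69 (34.8%), among them RPL10, RPL11, RPL13A and RPL18, although RPL12 did not. The folding enzymes of the endoplasmic reticulum held it in 2 of 8 (ERP29 and PDIA6), repressors of TGF-beta signalling in 1 of 5 (TGIF1), and splicing factors in 2 of 8 (PLRG1 and RBM22). These counts stand beside the 12.8% of protein coding entries.

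At the level of ERG binding, all 8 regions had a directly overlapping peak in each of the 4 ERG lists. The single-list background was low: 2.11% of VCaP ERG peaks overlapped a peak of wild-type replicate 1, 1.15% one of replicate 2 and 1.49% one of ERG P436A. Since the regions were picked for this, nothing is read from the contrast. No region had a peak in all 7 lists, so a description as bound in every list holds for ERG lists only.

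The VCaP peaks at the 8 regions were 881 to 3229 bp wide, with a median of 1407 bp against 719 bp for the list. In wild-type replicate 1 they were 607 to 1596 bp (median 820 bp, list 608 bp), and in replicate 2 they were 479 to 909 bp (median 544 bp, list 501 bp). Those of ERG P436A were 472 to 501 bp wide in a list with no peak over 501 bp, so width tells nothing about the mutant. The VCaP EWS list and the EWS list with ERG P436A also had no peak over 501 bp. EWS peaks with wild-type ERG reached 7061 bp, so overlap shares of the EWS lists come from unlike widths. All 8 regions were wider than the list median in the VCaP ERG list, 7 in replicate 1 and 5 in replicate 2. The 7 other VCaP ERG peaks that overlapped in all 4 ERG lists were 497 to 1146 bp wide, with a median of 804 bp. Wider peaks meet others more easily, and the regions were chosen for peaks in these lists. Nothing is therefore read from their width against the list medians.

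Of the 8 regions, 7 had bases common to the peaks of all 4 ERG lists, from 108 bp at NORAD to 499 bp at RBM22, with a median of 456 bp. The common stretches were chromosome 12, 89746120 to 89746457 (DUSP6), chromosome 20, 34639147 to 34639254 (NORAD), chromosome 5, 180650442 to 180650926 (TRIM41), chromosome 9, 130213338 to 130213809 (RPL12), chromosome 17, 79818866 to 79819321 (P4HB), chromosome 5, 150080241 to 150080739 (RBM22), and chromosome 5, 158690120 to 158690464 (UBLCP1). SKI had none. The ERG P436A peak lay wholly inside the VCaP ERG peak at 8 of 8 regions, that of replicate 1 at 6 and that of replicate 2 at 7. Over whole lists, the peaks that overlapped a VCaP ERG peak lay wholly inside one in 66.1% (ERG P436A), 58.9% (replicate 1) and 41.6% (replicate 2). VCaP peaks at the regions are wider than most of their list, and no ERG P436A peak was over 501 bp. The part of width in these counts was not tested. As the regions were chosen for peaks in these lists, nothing is read from the order of the counts.

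**Figure D2:**
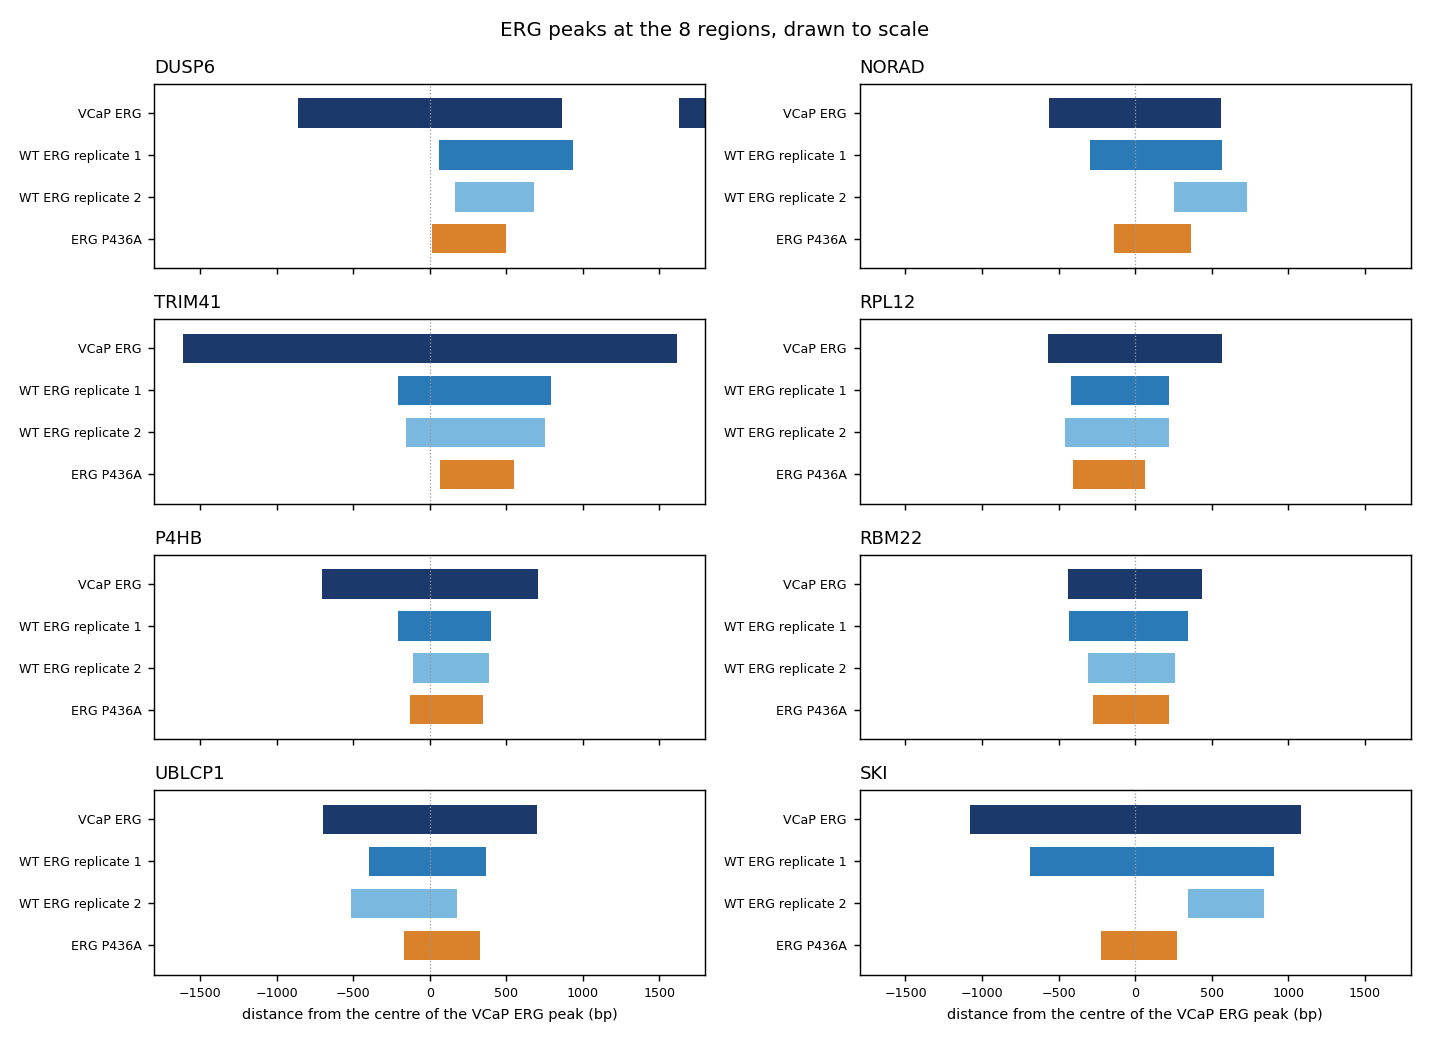
ERG peaks at the 8 regions, drawn to scale as distance from the centre of the VCaP ERG peak (x axis, bp) with 1 row per list. The RWPE1 peaks stack on each other at RBM22, P4HB and TRIM41, whereas at SKI the peak of replicate 2 and that of ERG P436A share no base.

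Closest agreement of the 4 lists was seen at RBM22. Its ERG peaks spanned 150080077 to 150080957 of chromosome 5 in VCaP, 150080086 to 150080864 in replicate 1, 150080210 to 150080780 in replicate 2 and 150080241 to 150080739 with ERG P436A. The 3 RWPE1 centres lay 22 to 42 bp from the VCaP centre, all on the same side. Position in the list was close as well, at 28.8%, 15.5%, 27.1% and 28.3% of the VCaP, replicate 1, replicate 2 and ERG P436A lists, where a low percentage means listed early. The order of the lists is not documented as a ranking.

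TRIM41 was the region that stood early in every ERG list. Its VCaP peak (chromosome 5, 180648762 to 180651990) was the ninth listed of 7712, the ERG P436A peak was number 8 of 1746, and the wild-type peaks were number 103 of 1901 and number 27 of 1953. The RWPE1 centres agreed within 17.5 bp of each other and lay 290.5 to 308 bp from the centre of the wider VCaP peak. In its surroundings 63 VCaP ERG and 57 VCaP EWS peaks had their centre within 500 kb, against medians of 8 and 7 over all VCaP ERG peaks. The RWPE1 ERG lists had 3 (replicate 1), 4 (replicate 2) and 1 (ERG P436A) there, against a median of 0 in each. These counts include the peak at the region itself, for which it was chosen. None could therefore be 0, and nothing is read from that contrast. The 1 ERG P436A peak is the one at the region. A second VCaP ERG peak lay 2921 bp away, at 180644121 to 180645841.

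At SKI the replicates differed most among the 8 in peak centre (484 bp apart) and in listed position as a percent of the list (71.7 points apart). By shared bases they did not, with 498 bp shared at SKI and 312 bp at NORAD. The VCaP peak ran from 2186166 to 2188328 of chromosome 1 and was the eighth listed. Replicate 1 had a peak of 1596 bp, 2186561 to 2188156, at position 12 of its list, and replicate 2 one of 498 bp, 2187594 to 2188091, at position 1412. The ERG P436A peak, 2187028 to 2187521, stood at position 46. Peaks of replicate 2 and ERG P436A were 72 bp apart, and both fell within the wide peaks of VCaP and replicate 1. With 2 peaks of about the same width side by side under wider ones, the 4 lists share a region here and no single stretch. No peak of the ERG P436A list was over 501 bp, so the width of its peak here tells nothing. The part of that limit in the missing overlap was not tested.

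NORAD showed the same kind of spread in smaller measure. Peaks were called at 34638332 to 34639450 of chromosome 20 in VCaP, 34638598 to 34639458 in replicate 1, 34639147 to 34639625 in replicate 2 and 34638754 to 34639254 with ERG P436A. Replicate 1 and ERG P436A centres were 24 bp apart, while that of replicate 2 lay 358 bp from the former and 382 bp from the latter. Replicate 2 was also the list in which NORAD came late, at 76.9%, against 4.6% in VCaP, 19.9% in replicate 1 and 12.4% with ERG P436A.

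DUSP6 had more VCaP ERG peaks within 5 kb than any other of the 8 regions. Besides the peak at 89745096 to 89746820 of chromosome 12, others lay at 89739805 to 89741021, 89743233 to 89743732 and 89747587 to 89748541, giving 4 within the 5 kb window, and the first of these was listed earlier (4.0%) than the overlapping peak itself (23.1%). Each RWPE1 ERG list had 1 peak in that window: 89746017 to 89746896 in replicate 1, 89746120 to 89746636 in replicate 2 and 89745973 to 89746457 with ERG P436A. All 3 lay off the VCaP centre on the side of higher coordinates, by 498.5, 420 and 257 bp. As DUSP6 is on the minus strand, that side is towards upstream sequence. No list had an EWS peak within 10 kb.

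RPL12 carried a second site that was found in part of the RWPE1 lists. At the region itself, peaks were called at 130213174 to 130214313 of chromosome 9 in VCaP, 130213328 to 130213968 in replicate 1, 130213284 to 130213968 in replicate 2 and 130213338 to 130213809 with ERG P436A, with RWPE1 centres 95.5 to 170 bp from that of VCaP. About 3 kb on, replicate 2 had a peak at 130216547 to 130217318 and ERG P436A one at 130216638 to 130217134, while replicate 1 and VCaP had none there. A peak of 1 wild-type replicate and the mutant that the other replicate lacks is not a difference between the ERG forms. The listed position of the main peak also split the replicates, at 66.6% in replicate 1 and 11.3% in replicate 2, against 1.5% in VCaP and 1.9% with ERG P436A.

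P4HB and UBLCP1 had 1 ERG peak each within 5 kb in every ERG list. At P4HB the peaks were 79818265 to 79819679 of chromosome 17 in VCaP, 79818768 to 79819374 in replicate 1, 79818866 to 79819361 in replicate 2 and 79818846 to 79819321 with ERG P436A, and the 3 RWPE1 centres lay within 42.5 bp of each other. It was early in the VCaP list (1.9%) and later in the others (35.3%, 56.3% and 61.0%). UBLCP1 had peaks at 158689590 to 158690988 of chromosome 5 in VCaP, 158689891 to 158690659 in replicate 1, 158689774 to 158690464 in replicate 2 and 158690120 to 158690614 with ERG P436A. The ERG P436A centre was 92 bp from replicate 1 and 248 bp from replicate 2, which were 156 bp from each other. In listed position UBLCP1 stood at 0.532% in VCaP, 32.2% in replicate 1, 53.7% in replicate 2 and 12.3% with ERG P436A.

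**Figure D3:**
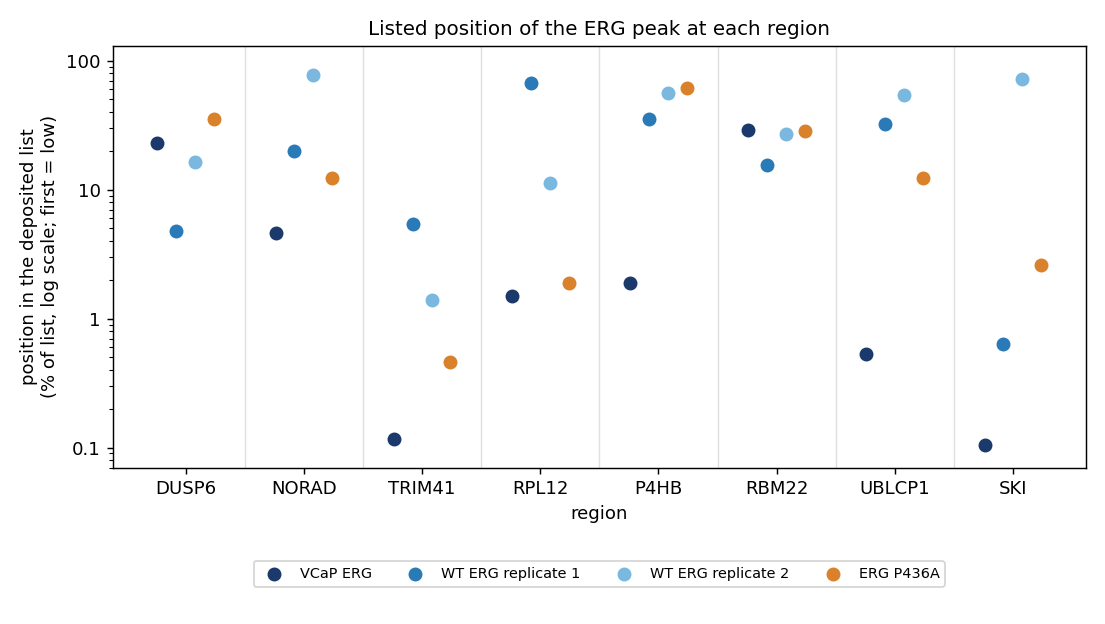
Position of the ERG peak at each region in its deposited list (y axis, % of the list, log scale, low means listed early) for the 4 ERG lists. TRIM41 stands in the first 10% of all 4 lists, and at NORAD and SKI replicate 2 stands far later than the other lists.

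The centres of ERG P436A peaks are given beside the distance between the wild-type replicates, as a description. Replicate 1 and replicate 2 centres were 8.5 to 484 bp apart over the 8 regions (median 60.5 bp). ERG P436A centres were 12.5 to 241.5 bp from replicate 1 (median 49.25 bp) and 5 to 568 bp from replicate 2 (median 107.8 bp). Both ranges overlapped that between replicates. Since the regions were chosen for a peak in each of these lists, centres could not lie far apart, and nothing is read from that overlap. The ERG P436A list also had no peak over 501 bp, so centres of peaks of unlike width are compared. The mutant's centre fell between the replicate centres at 2 regions, P4HB and RBM22. Its listed position was earlier than both replicates at 4 regions (NORAD, TRIM41, RPL12 and UBLCP1), later at 3 (DUSP6, P4HB and RBM22) and between them at SKI. With 1 ERG P436A list and 2 wild-type lists the difference was not tested, and the regions are not replicates of a condition.

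The regions were chosen by ERG peaks, though with earlier results of these data known. EWS peaks lay near 2 of them in VCaP and near none in RWPE1. In VCaP, 2 of the 8 regions had an EWS peak within 5 kb (25%, exact 95% interval 3.19% to 65.1%), TRIM41 and NORAD, against 30.6% of all VCaP ERG peaks, a value that lies within the interval. TRIM41 had 4 such EWS peaks, of which the one at 180649378 to 180649871 overlapped the VCaP ERG peak but did not reach the stretch common to the 4 ERG lists. The others lay at 180646611 to 180647098, 180654510 to 180655006 and 180656394 to 180656892. At NORAD the EWS peak, 34633244 to 34633740, was 4592 bp from the VCaP ERG peak, just inside the window. With direct overlap, 1 of 8 regions had EWS in VCaP, beside 11.3% of all VCaP ERG peaks.

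In RWPE1, 0 of the 8 regions had an EWS peak within 5 kb, either with wild-type ERG or with ERG P436A (exact 95% interval 0% to 36.9% for each). Over all VCaP ERG peaks the shares were 2.67% and 1.28%. At so low a background a count of 0 in 8 is not detectably low. Nearest beyond the window was an EWS peak with wild-type ERG at 79825312 to 79825779 of chromosome 17, 5633 bp from the P4HB region. Just inside the window lay the VCaP EWS peaks at 4404 bp (TRIM41) and 4592 bp (NORAD) and a VCaP ERG peak at 4075 bp (DUSP6), and just outside lay ERG peaks at 5513 bp (TRIM41, VCaP) and 5954 bp (RPL12, replicate 2).

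**Figure D4:**
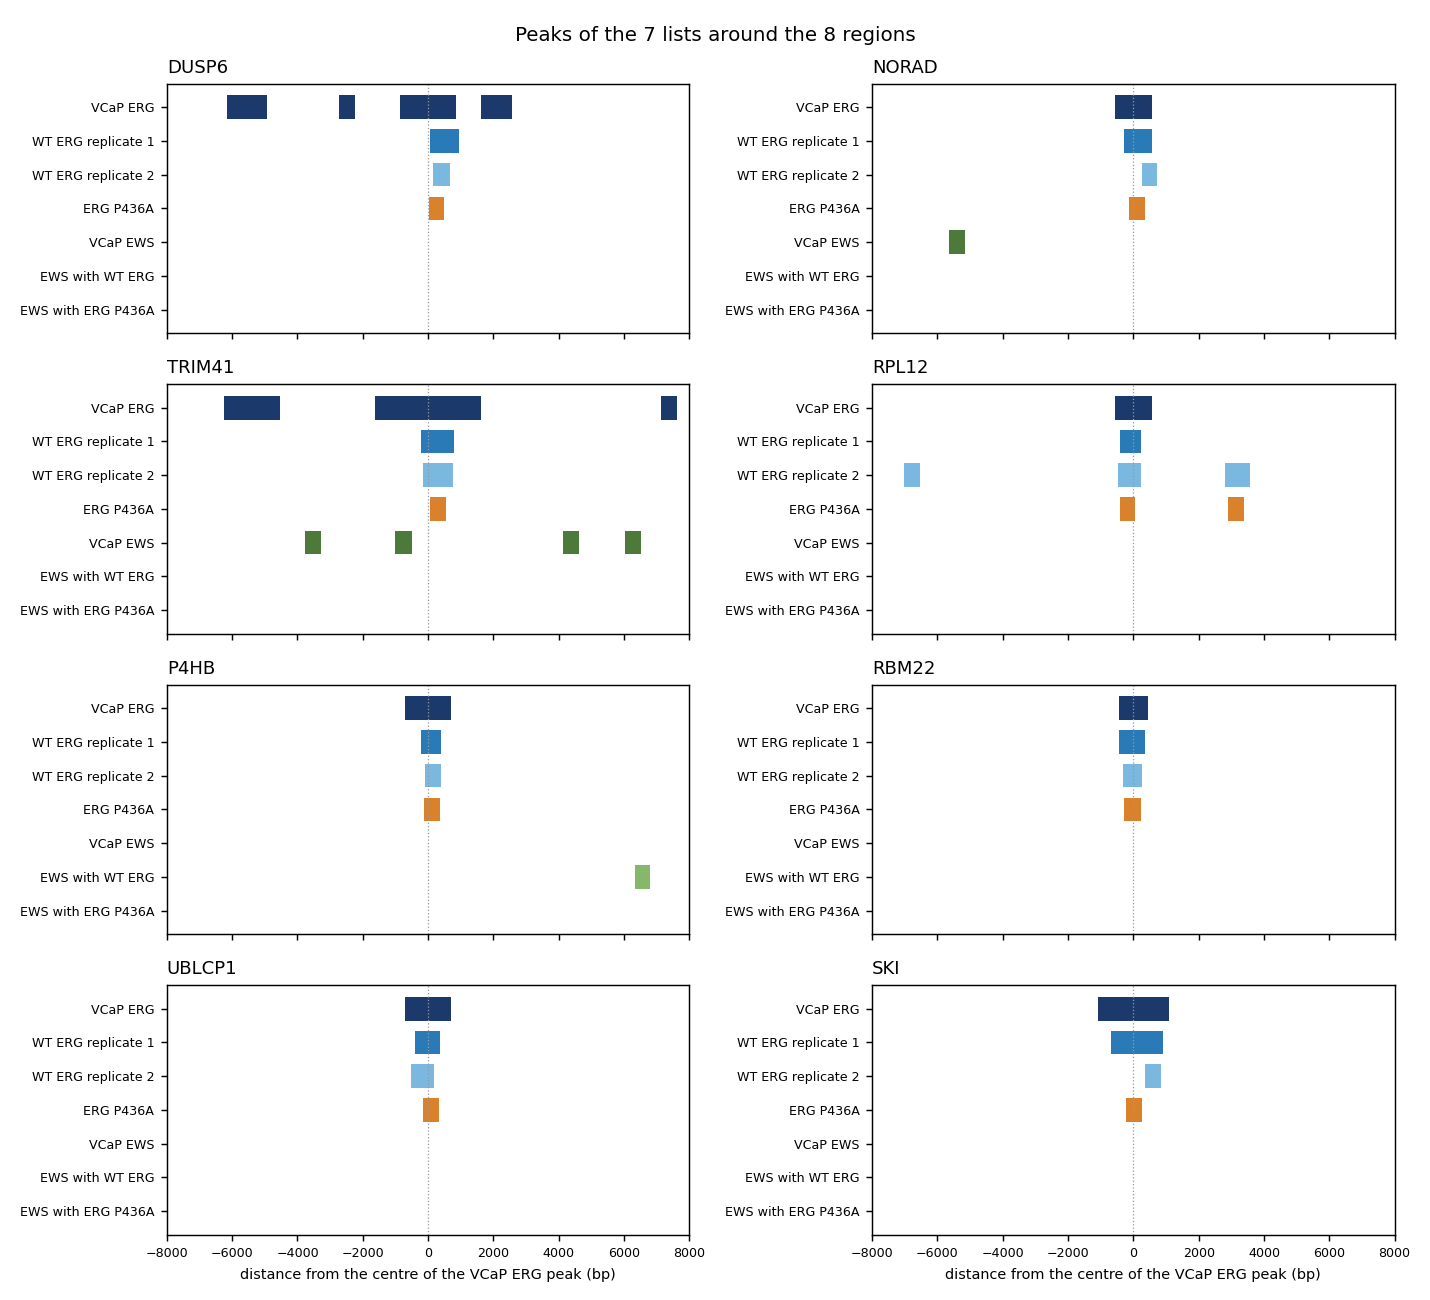
Peaks of the 7 lists around each region, as distance from the centre of the VCaP ERG peak (x axis, bp), 1 row per list. EWS rows are empty at 5 of the 8 regions, VCaP EWS peaks appear at TRIM41 and NORAD, and the EWS peak with wild-type ERG near P4HB lies outside the 5 kb window.

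**Figure D5:**
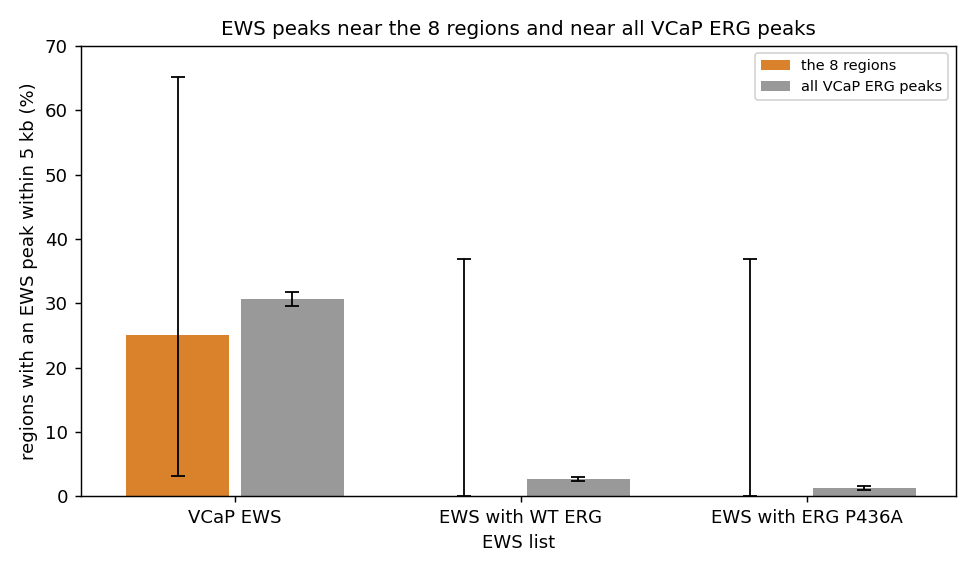
Percent of regions with an EWS peak within 5 kb (y axis) in each EWS list (x axis), for the 8 regions (orange) and all 7712 VCaP ERG peaks (grey), with exact 95% binomial intervals that cover counting error only. The interval of the 8 regions spans the grey value in each list.

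In the VCaP lists no other of the 8 regions had as many peaks around it as TRIM41. The other 7 had 3 (UBLCP1) to 15 (SKI) VCaP ERG peaks and 0 to 4 VCaP EWS peaks with a centre within 500 kb. RPL12 had 25 replicate 2 peaks in that span and 4 of replicate 1. NORAD had 14 ERG P436A peaks, 2 of replicate 1 and 7 of replicate 2. It had 19 EWS peaks with wild-type ERG and 6 with ERG P436A, although none of these RWPE1 EWS peaks was within 10 kb. Over all VCaP ERG peaks the median was 1 for EWS with wild-type ERG and 0 for each other RWPE1 list. Every ERG count at the 8 regions includes the peak at the region itself. DUSP6 had 0 VCaP EWS peaks, 0 EWS peaks with wild-type ERG and 1 with ERG P436A in its span.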

How the data were processed

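ChIP-seq peak lists of 7 samples were used, and the 3 inputs were not used here. The deposited lists hold chromosome, start and end, and the authors gave no other value, score, signal or p-value per peak in them. Per the submitters' processing notes, alignment was to hg19 by Bowtie2, given as version 0.12.8. Which program called the peaks, with what cutoff and control, is not given in the sources used here. Read depth is unknown. Starts were read as 0-based and are printed 1-based. Each file belongs to 1 sample, whose group came from its title. The regions and gene lists were chosen with earlier results of these data known, and no test was run on them.

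A peak counted as near when its edge lay within 5 kb of the VCaP ERG peak, and as overlapping with at least 1 bp shared. Shares carry exact (Clopper-Pearson) 95% intervals, computed with SciPy 1.17.1 in Python 3.11.15, for counting error only. A peak's centre is the midpoint of its start and end. Motifs were sought on both strands of the RefSeq promoter table (GRCh38.p14), in which 7 of 8 genes matched by symbol. All 8 regions are described; other regions present in all ERG lists are given by position, the first 5 listed in VCaP. Counting and motif search were tested on simulated data. Alternatives were windows of 1 and 10 kb, overlap alone, peaks set to 500 bp, VCaP ERG peaks of at most 2000 bp, chromosomes 1 to 22 and X, either wild-type replicate left out, the longer motif and, added after seeing the data, protein coding genes only. The planned look at peaks of related genes was not run, for want of an hg19 annotation.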

Additional observations from a re-analysis of the deposited data

How the results depend on the processing

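All 8 regions had an ERG peak in all 4 ERG lists under each window and without either wild-type replicate. The choice of regions fixed that outcome, as their peaks overlap in every ERG list, so it is no check. With every peak set to 500 bp 7 did, and SKI was lost. The number with an EWS peak depended on the window. In VCaP, and over any EWS list, it fell from 2 to 1 with overlap or a window of 1 kb and to 0 with peaks set to 500 bp. With wild-type ERG in RWPE1 it was 0, and 1 within 10 kb (P4HB). The background moved with the window too. VCaP ERG peaks with all 3 RWPE1 ERG lists made up 0.298%, and 0.195% with overlap, 0.506% within 10 kb and 0.169% at 500 bp. Leaving out a replicate gave 0.648% to 0.765%. With overlap, 1 kb and 500 bp, the share of VCaP ERG peaks with EWS was 11.3%, 18.8% and 7.05% for VCaP EWS, 11.7%, 19.7% and 7.37% for any EWS list, 0.402%, 0.843% and 0.246% for EWS with wild-type ERG, and 0.156%, 0.441% and 0.104% for EWS with ERG P436A. Within 10 kb the last 2 were 4.63% and 2.13%. Fewer peaks pass a narrower window by construction. In place of GGAA in 7 promoters and 95.5% of all entries, CCGGAAG was in 4 and 10.3%. Of 60 alternative values, 32 stayed within 1.5 times the reported one, and some of these were fixed by the choice of regions. No paired analysis was possible because only wild-type ERG had replicate lists. Without read depth or peak heights, a missing peak cannot be told from a shallow library.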

Other observations

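A further 7 VCaP ERG peaks overlapped a peak in all 3 RWPE1 ERG lists, and 15 had one within 5 kb in each, of which 3 lie beside DUSP6 or TRIM41. The first 5 listed of these 15 were at chromosome 20, 61407873 to 61409018, chromosome 5, 141229063 to 141230060, chromosome 5, 180644121 to 180645841 (beside TRIM41), chromosome 8, 144363339 to 144364384, and chromosome 20, 352305 to 353299. The 7 were 497 to 1146 bp wide and stood at positions 490 to 6536 of the VCaP list, against 8 to 2219 for the 8 named regions. How the 8 were picked over these 7 is not given, and the list order is not documented as a ranking. Nothing is therefore read from this contrast in position. Of these 7, 6 had bases common to all 4 ERG lists.

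Of those 7, 2 had an EWS peak of RWPE1 cells, and both are named after their values were seen. At chromosome 17, 41400277 to 41400942, an EWS peak with wild-type ERG overlapped and one with ERG P436A lay within 5 kb, so each RWPE1 list had a peak there and only VCaP EWS had none. At chromosome 9, 132096160 to 132096963, an EWS peak with ERG P436A overlapped. Among the other regions with ERG peaks within 5 kb in each list, chromosome 8, 131008820 to 131009768, also had an EWS peak with wild-type ERG within 5 kb. Of all VCaP ERG peaks 3.83% had an RWPE1 EWS peak within 5 kb, so the 0 of the 8 named regions is near that background, and the difference between the sets was not tested.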
